A study of Homo sapiens with 50 samples.

Results

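*CCNF* and *PIF1* were followed through irradiated, bystander and sham-irradiated H1299 cells, a human non-small cell lung carcinoma line, and H1299shRAD9 cells, a derivative depleted of RAD9. The members were every probe that is not a control and carries the gene name *CCNF* or *PIF1*, which gave 1 probe for each gene, 2 of 34127 probes on the array. The study chose these 2 genes because they had the lowest fold changes in directly irradiated H1299shRAD9 cells, so their values in that comparison describe the choice and are given without a test.

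*CCNF* encodes cyclin F, the founding F-box protein, which recruits substrates to the SCF (SKP1, CUL1, F-box protein) ubiquitin ligase instead of activating a cyclin-dependent kinase. Its mRNA and protein accumulate through S phase, peak in G2 and decline at mitosis, and its substrates include proteins of DNA replication, nucleotide synthesis and centrosome duplication. *PIF1* encodes a 5′ to 3′ DNA helicase that unwinds G-quadruplexes and forked DNA, removes telomerase from chromosome ends and assists DNA synthesis in break-induced replication. Its protein in human cells is also abundant in late S phase and G2.

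The arrays measured total RNA, amplified to cRNA and labeled with Cy3, from cells harvested 4 h after exposure. H1299 cells have inherent RAD9 levels, and H1299shRAD9 cells were made from them by infection with a pSUPER.retro.puro vector that expresses a short hairpin RNA (shRNA) against *RAD9*. The study used more than 1 stable transfectant interchangeably, and the labels do not say which of them gave a sample. Each line had 5 groups of 5 samples: sham-irradiated controls (CTL, 0 Gy); bystander positive cells (BP), which were not hit themselves but shared a dish with cells exposed to 1 Gy of 4He ions (125 keV per micron) and formed micronuclei; the directly irradiated cells of such dishes (DBP); bystander negative cells (BN), which shared a dish with cells given the same dose but did not respond with micronuclei; and the directly irradiated cells of those dishes (DBN). BP and BN samples were selected by the study on their micronucleus counts, which makes this a property of the groups and not a result. As RNA came from whole populations, fewer cells that express a gene and less of its RNA per cell cannot be told apart.

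Between 55.4% and 83.3% of the probes of an array were well above background (median 63.5%). The epithelial keratins *KRT8* and *KRT18*, and *VIM*, were well above background on all arrays of both lines. *RAD9A*, the target of the shRNA, had a level of 3.65 ± 0.19 in H1299shRAD9 CTL and 4.01 ± 0.13 in H1299 CTL (SD, n = 5), which is 77.9% of the parental signal, and this difference of −0.36 had an adjusted p of 0.0561 in limma. The difference between lines was −0.34 in DBP, −0.13 in BP, −0.11 in BN and 0.06 in DBN (adjusted p = 0.303, 0.660, 0.688 and 0.943), so *RAD9A* did not pass the test in any group. The study chose its clones by reduced RAD9 protein on Western blots, which an RNA probe does not measure. Which part of the transcript the shRNA targets, relative to this probe, was not analysed here, and the samples are called by their labels throughout.

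Each level below is the log2 processed intensity of the probe minus the median log2 intensity of its array, so that 1 unit is a doubling of signal and 0 is the middle of the array. A level tells how a gene moved between arrays, and the levels of *CCNF* and *PIF1* were not set against each other because each probe binds with its own strength. The *CCNF* probe (A_24_P193592, transcript NM_001761) lies on chromosome 16 at 2507886 to 2507945 of hg19, plus strand. The *PIF1* probe (A_23_P416468, transcript NM_025049) lies on chromosome 15 at 65107916 to 65107975 of hg19, minus strand. Each probe had 1 spot per array.

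Many genes of the G2 and M phases were lower in the same samples as *CCNF* and *PIF1*, so the promoters of both are shown for the elements known from such genes. They are RefSeq windows of 300 bases on GRCh38.p14, from 250 bases before the transcription start, 5′ to 3′ on the strand of the gene. No marked motif overlapped another. Capitals mark TTTGAA and TTCGAA, the letters of the cell cycle genes homology region (CHR), and CCAAT, the core of the NF-Y box, or its reverse complement ATTGG.
CCNF (chr16:2429197-2429496, plus strand): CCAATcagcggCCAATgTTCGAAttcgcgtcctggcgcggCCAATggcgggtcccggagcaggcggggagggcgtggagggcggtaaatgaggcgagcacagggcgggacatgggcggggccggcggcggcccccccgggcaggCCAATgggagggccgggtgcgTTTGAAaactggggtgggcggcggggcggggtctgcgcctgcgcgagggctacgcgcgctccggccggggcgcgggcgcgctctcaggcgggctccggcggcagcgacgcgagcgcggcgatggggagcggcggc
PIF1 (chr15:64825598-64825897, minus strand): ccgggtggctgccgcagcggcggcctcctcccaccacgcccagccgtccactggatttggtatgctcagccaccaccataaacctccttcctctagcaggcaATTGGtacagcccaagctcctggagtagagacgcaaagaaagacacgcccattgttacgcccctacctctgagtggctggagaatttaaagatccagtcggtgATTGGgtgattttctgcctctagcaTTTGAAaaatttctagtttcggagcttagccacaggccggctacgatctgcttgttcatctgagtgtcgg
Both windows held 1 TTTGAA, starting 85 bases before the start of *CCNF* and 20 bases before the start of *PIF1*. *CCNF* held CCAAT 4 times (250, 239, 210 and 106 bases before the start), all on the strand of the gene, and *PIF1* held it 2 times, at 148 and 45 bases, both on the opposite strand. *CCNF* also had TTCGAA at 233 bases and the GC box letters GGGCGG 5 times, and neither motif was found in the *PIF1* window. The GC content was 77.3% in *CCNF* and 54.7% in *PIF1*. Counted on both strands, TTTGAA occurred in 15.2% of 35116 windows of this length, CCAAT at least 2 times in 10.8%, CCAAT at least 4 times in 0.991%, TTCGAA in 1.45% and GGGCGG in 45.0%. TTTGAA together with at least 2 CCAAT, which both genes have, occurred in 1.78% of the windows. These are matches of letters, and binding was not measured.

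Some H1299 arrays stood apart and matter for *CCNF*. On the replicate 2 arrays of H1299 DBP, DBN and BP, *CCNF* was not well above background, with processed intensities of 20.4, 57.5 and 25.18, and the authors' own processed values are blank for *CCNF* on exactly these 3 arrays. Of 20078 features that passed the background criterion, 208, 347 and 324 lay at least 2 log2 units below their own median on these arrays, against 0 to 65 on the other 47 arrays (median 34), and 92 did so on all 3. The 3 arrays lay on slides 9 and 11, which also held arrays without this pattern, and the same arrays gave *PIF1* levels of 3.67, 3.56 and 5.07. *CCNF* was thus measured above background on 4 of 5 arrays in these groups, and its differences in H1299 are given with and without replicate 2. The part of these arrays in the results was not tested beyond that.

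In H1299shRAD9 cells both genes were lower after direct irradiation, at 39.3% to 46.5% of the CTL signal, and neither passed the test in bystander cells. The *CCNF* levels of replicates 1 to 5 were 1.53, 1.61, 1.59, 1.41 and 1.64 in CTL. They were 0.38, 0.58, 0.25, 0.31 and 0.73 in DBP and −0.08, −0.01, 0.35, 0.27 and 1.14 in DBN. Every directly irradiated sample lay below every CTL sample, with DBN replicate 5 the nearest to them. *CCNF* differed from CTL by −1.10 ± 0.16 in DBP and −1.22 ± 0.46 in DBN (mean ± SD of 5 pairs), or 46.5% and 42.9% of the CTL signal.

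*PIF1* had levels of 4.17, 4.05, 4.65, 4.31 and 4.78 in H1299shRAD9 CTL. Its levels were 2.74, 2.86, 2.73, 3.24 and 3.65 in DBP and 2.96, 2.87, 3.03, 3.47 and 2.91 in DBN. Again no directly irradiated sample reached the lowest CTL sample. *PIF1* differed from CTL by −1.35 ± 0.34 in DBP (39.3% of CTL) and by −1.34 ± 0.41 in DBN (39.4% of CTL). Groups that do not overlap and lie below CTL were seen for 0.796% of the 12185 features in DBP and 1.11% in DBN, and counted from the lowest difference *PIF1* was number 5 in both and *CCNF* number 14 and number 8; since the choice of the genes used the DBP comparison and *PIF1* was already known for DBN, nothing is read from these counts.

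**Figure D1:**
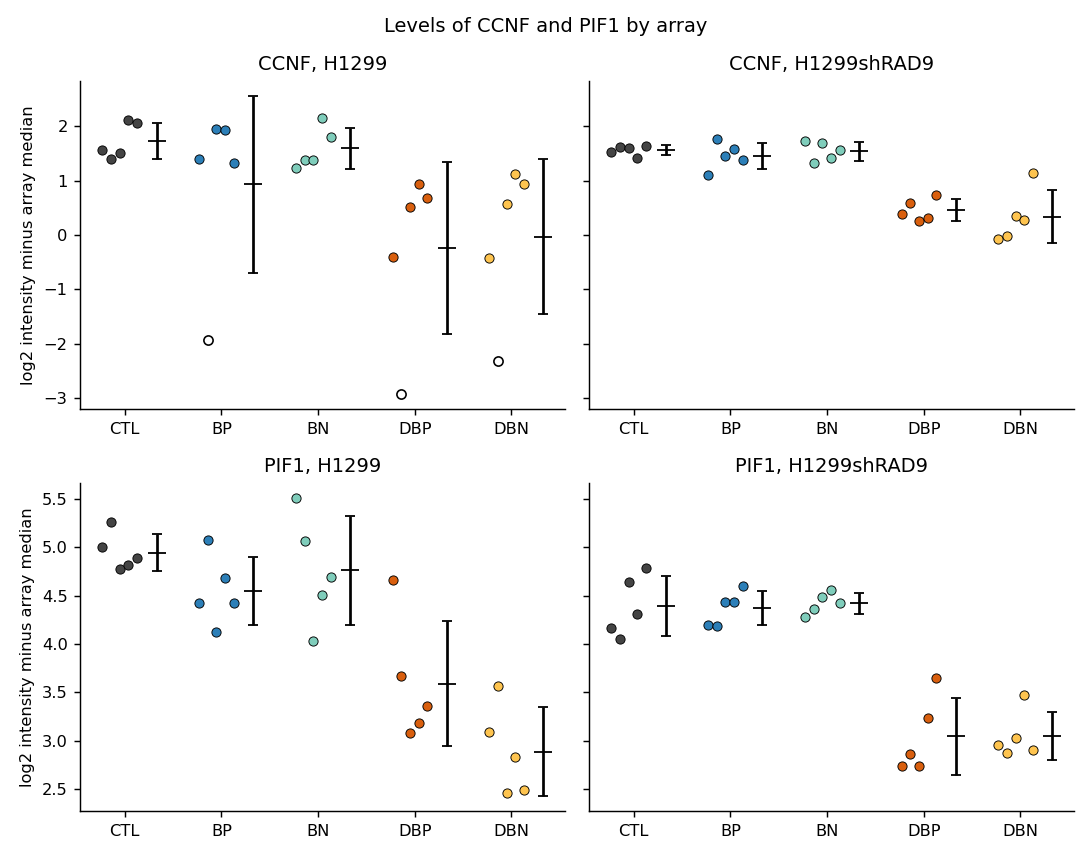
Levels of *CCNF* (top) and *PIF1* (bottom) in the 5 groups of H1299 (left) and H1299shRAD9 (right), as log2 intensity minus the array median; each point is 1 array, replicates 1 to 5 run from left to right, open points were not well above background, and the bar beside each group is the mean ± SD (n = 5). The DBP and DBN points lie below the CTL points for both genes in both lines, and the open *CCNF* points at −1.93, −2.93 and −2.33 are H1299 replicate 2.

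The bystander groups of H1299shRAD9 did not choose the genes, although they share the CTL arrays with the groups that did. *CCNF* had levels of 1.11, 1.76, 1.44, 1.58 and 1.38 in BP and 1.72, 1.32, 1.69, 1.42 and 1.56 in BN, all within or close to the CTL range. Its difference from CTL was −0.10 in BP (95% CI −0.38 to 0.17, limma adjusted p = 0.801) and −0.01 in BN (−0.25 to 0.23, adjusted p = 0.967). *PIF1* had levels of 4.19, 4.18, 4.44, 4.44 and 4.60 in BP and 4.28, 4.36, 4.48, 4.56 and 4.43 in BN, again overlapping CTL. Its difference was −0.02 in BP (−0.26 to 0.21, adjusted p = 0.962) and 0.03 in BN (−0.26 to 0.32, adjusted p = 0.934). For a call the limma p had to lie below 0.006 with the adjusted p below 10%, which 2.33% of all features passed in BP and 0.0492% in BN, and neither gene was among them. The lower ends of all 4 intervals lay above −0.50, the smallest fall of *CCNF* in any H1299shRAD9 DBN pair.

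Directly irradiated cells were compared with the bystander cells of the same replicate number. The study took both from the same dishes, but the labels do not say that equal numbers mark the same dish. In H1299shRAD9, *CCNF* was lower in DBN than in BN in 5 of 5 pairs, with differences of −1.80, −1.33, −1.34, −1.15 and −0.42, and the groups did not overlap, which held in this direction for 0.443% of features. The mean difference was −1.21 (95% CI −1.62 to −0.80), or 43.3% of the BN signal, with a limma adjusted p of 0.0615, and it was called together with 0.131% of all features, 16 in number and all lower. This comparison uses the same DBN arrays as the difference from CTL, which was given above without a test. As BN lay close to CTL, the call is not separate evidence from that description. The call was lost without replicate 1, 2, 3 or 4 (−1.06, −1.18, −1.18 and −1.22, adjusted p = 0.269 to 0.423), and without replicate 5, the pair with the smallest difference, it was −1.41 with adjusted p = 0.0221. It was also lost with no replicate block (adjusted p = 0.112), with the background criterion applied per group (0.12) and with all groups in one fit (0.398). The difference of *PIF1* from BN, given as a description, was −1.38 ± 0.18, and in DBP the differences from BP were −1.003 ± 0.30 for *CCNF* and −1.33 ± 0.28 for *PIF1* (SD of 5 pairs), again without overlap, as for 0.509% of features.

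In the parental H1299 cells *PIF1* was also lower after direct irradiation. Its levels were 5.00, 5.26, 4.77, 4.82 and 4.89 in CTL and 4.67, 3.67, 3.08, 3.18 and 3.36 in DBP, with DBP replicate 1 close to the CTL range and the other DBP samples more than 1 unit below it. The groups did not overlap, as for 0.911% of features in this direction. *PIF1* was lower in DBP in 5 of 5 pairs, with a mean difference of −1.36 (95% CI −1.84 to −0.87), or 39.1% of CTL. Its p was 0.000109 and its limma adjusted p 0.141, so it was not called, as all but 0.0574% of features were not. Without replicate 1, whose pair differed by −0.33 while the others differed by −1.53 to −1.70, the difference was −1.61 and was called (adjusted p = 0.0323). Without replicate 2, 3, 4 or 5 it was −1.30, −1.27, −1.28 and −1.31 and was not called (limma adjusted p = 0.332 to 0.633).

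*PIF1* was lowest of all in H1299 DBN, with levels of 3.09, 3.56, 2.46, 2.83 and 2.49. All 5 lay below all CTL samples, and the difference from CTL was −2.06 ± 0.29, or 24.0% of CTL; among 12185 features it was the lowest difference. This value was already known from earlier results and is a description, like the difference of −1.88 ± 0.41 from BN.

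The H1299 bystander levels of *PIF1* were 4.43, 5.07, 4.13, 4.68 and 4.42 in BP and 5.52, 5.06, 4.03, 4.51 and 4.69 in BN. BP was below CTL in 5 of 5 pairs but only by 0.13 to 0.65, with a mean of −0.40 (95% CI −0.79 to −0.005) and an adjusted p of 0.779, and the groups overlapped. BN was lower in 4 of 5 pairs and differed by −0.19 (−0.57 to 0.20, adjusted p = 0.999). No feature was called by limma in either comparison (percent called 0), where 712 and 339 features had an unadjusted p under 0.05. With normexp background correction the BN difference of *PIF1* from CTL was −1.01 (limma adjusted p = 0.230), so its size depended on the processing. DBP differed from BP by −0.96 for *PIF1* (−1.54 to −0.37, limma adjusted p = 0.723) and was lower in 4 of 5 pairs, replicate 1 being the exception.

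*CCNF* was lower in all directly irradiated H1299 samples than in CTL, but over a wide range. Its levels were 1.57, 1.40, 1.51, 2.11 and 2.05 in CTL, −0.40, −2.93, 0.52, 0.94 and 0.68 in DBP, and −0.43, −2.33, 0.57, 1.12 and 0.94 in DBN. The groups did not overlap, which held in this direction for 0.911% of features in DBP and 0.87% in DBN. The difference from CTL was −1.97 in DBP (95% CI −2.90 to −1.03, limma adjusted p = 0.303), the lowest of all 12185 features, and −1.76 in DBN (−2.57 to −0.94, adjusted p = 0.636), the third lowest. Neither was called, and 0.0574% and 0.0164% of features were. Without replicate 2 the differences were −1.38 and −1.26 (adjusted p = 0.249 and 0.462), number 1 and number 11 from the lowest, and the group means were 1.81 ± 0.32 in CTL, 0.43 ± 0.58 in DBP and 0.55 ± 0.69 in DBN (SD, n = 4).

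In H1299 bystander cells *CCNF* had levels of 1.40, −1.93, 1.94, 1.93 and 1.32 in BP and 1.24, 1.39, 1.38, 2.15 and 1.80 in BN. Only BP replicate 2 lay far from CTL, and it moved the mean difference: −0.80 with it (95% CI −1.77 to 0.18, adjusted p = 0.779) and −0.16 without it (adjusted p = 0.871). BN differed from CTL by −0.14 (−0.39 to 0.12, adjusted p = 0.999). With normexp background correction this BN difference was −0.48 (limma adjusted p = 0.288). *CCNF* was lower in DBP than in BP in 5 of 5 pairs, with a difference of −1.17 (−1.61 to −0.73, adjusted p = 0.511), and lower in DBN than in BN in 5 of 5 pairs, with a difference of −1.62 (−2.51 to −0.73, adjusted p = 1.00), which became −1.10 without replicate 2. The DBP value was little changed without replicate 2, at −1.21, since *CCNF* was dim on both replicate 2 arrays. No feature was called in these 2 comparisons (percent called 0), where 739 and 410 features had an unadjusted p under 0.05.

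**Figure D2:**
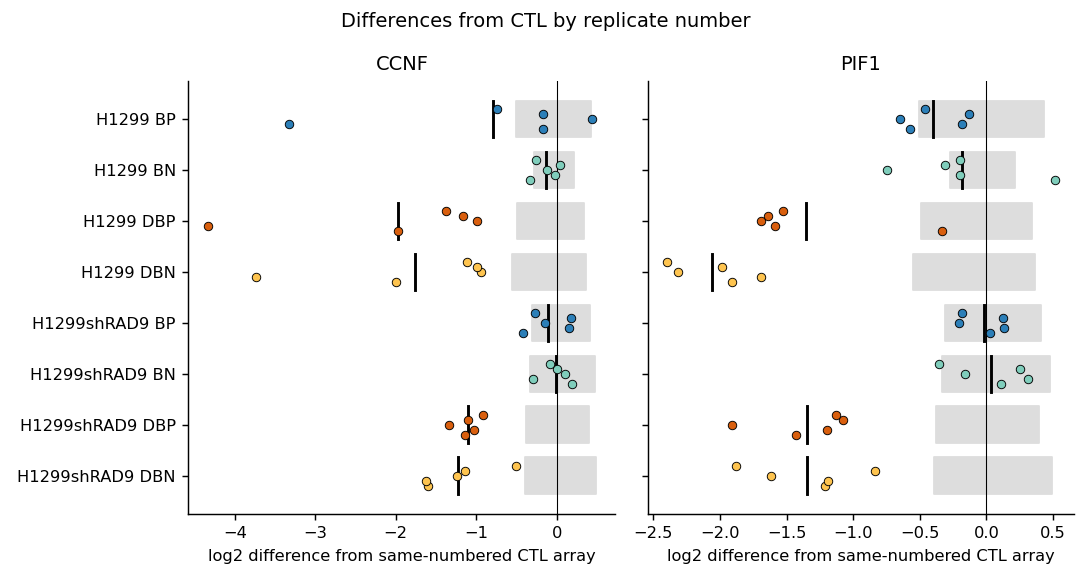
Log2 differences of *CCNF* (left) and *PIF1* (right) from the CTL array with the same replicate number; points are the 5 pairs, the vertical bar is their mean, and the gray band spans the 5th to 95th percentile of the mean difference of all 12185 features. The DBP and DBN means lie left of the gray band for both genes in both lines, whereas the BP and BN means lie inside it, apart from *CCNF* in H1299 BP at −0.80.

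The arrays lay on 13 slides, 2 of which held both lines. On every slide with both kinds of array of a line, the directly irradiated arrays had a lower mean than the other arrays of that line. The difference for *CCNF* was −3.22 to −0.90 over 7 H1299 slides and −1.70 to −0.79 over 6 H1299shRAD9 slides. Without replicate 2 the *CCNF* range was −1.89 to −0.90 over the 6 H1299 slides that still held both kinds. The difference for *PIF1* was −1.88 to −0.60 over the 7 H1299 slides and −1.60 to −0.95 over the 6 H1299shRAD9 slides, and without replicate 2 the H1299 range was −1.88 to −0.045, the last from the slide of DBP replicate 1. The direct groups of H1299shRAD9, and *PIF1* in H1299 DBN, are among them, so that these are descriptions.

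The study also listed both genes among those without significant change between the unirradiated lines. The p-values of that comparison are thus not independent of the choice and serve as descriptions. Before irradiation the lines differed little in *CCNF* (−0.17 in H1299shRAD9 CTL against H1299 CTL, 95% CI −0.53 to 0.19, limma adjusted p = 0.449). *PIF1* was lower in H1299shRAD9 CTL by 0.55 (−0.93 to −0.18), 68.1% of the H1299 signal, with a single overlap: replicate 5 of H1299shRAD9, at 4.78, lay just above replicate 3 of H1299, at 4.77. Its p of 0.00665 missed the threshold of 0.005 for the comparison of lines although the limma adjusted p was 0.038, and 15.5% of all features were called, 7.65% of them lower in H1299shRAD9 as a share of all features. Without replicate 5 of both lines the difference was −0.67 and was called (adjusted p = 0.0552). The CTL arrays of the lines shared no slide, and with slide as a random block the *PIF1* difference was −0.51 (limma adjusted p = 0.123).

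In bystander cells the lines differed in *PIF1* by −0.18 in BP (95% CI −0.61 to 0.26, limma adjusted p = 0.615) and −0.34 in BN (−0.84 to 0.17, adjusted p = 0.343), where 7.52% and 8.41% of features were called. In *CCNF* they differed by 0.52 in BP (−0.74 to 1.78, adjusted p = 0.604), which was −0.27 without replicate 2 of both lines. In BN they differed by −0.05 in *CCNF* (−0.47 to 0.37, adjusted p = 0.875). After direct irradiation *CCNF* differed between lines by 0.69 in DBP and 0.36 in DBN, and *PIF1* by −0.55 and 0.16, as descriptions. Without replicate 2 of both lines *CCNF* differed by −0.015 and −0.12, with the opposite sign. In these groups 6.8% and 5.02% of features were called with all replicates.

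Whether the change from CTL itself differed between lines was fitted as an interaction. For *PIF1* in BP the change of H1299shRAD9 exceeded that of H1299 by 0.38 (95% CI −0.01 to 0.77, limma adjusted p = 0.687), and for *CCNF* by 0.69 (−0.49 to 1.87, adjusted p = 0.759). In BN the values were 0.22 (−0.27 to 0.70, adjusted p = 0.932) and 0.12 (−0.18 to 0.42, adjusted p = 0.950). As descriptions, the fall of *PIF1* differed between lines by 0.01 in DBP and by 0.72 in DBN, where H1299 fell further, and that of *CCNF* by 0.86 and 0.54. Without replicate 2 of both lines the *CCNF* values were 0.25 in DBP, 0.14 in DBN, −0.0033 in BP and 0.22 in BN.

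Dishes with and without a bystander response were compared without pairing. BP and BN of H1299shRAD9 differed by −0.09 in *CCNF* (95% CI −0.42 to 0.24) and by −0.05 in *PIF1* (−0.34 to 0.23), and those of H1299 by −0.66 (−1.95 to 0.63, and 0.004 without replicate 2) and by −0.21 (−0.80 to 0.38). The directly irradiated cells of H1299, DBP against DBN, differed by −0.21 in *CCNF* (−1.77 to 1.34), with a limma adjusted p of 0.806 when the replicate number was a block, and by −0.11 without replicate 2. No feature was called by limma in any of these comparisons, where 46 (H1299shRAD9 BP against BN), 201 (H1299 BP against BN) and 59 (H1299 DBP against DBN) features had an unadjusted p under 0.05. As descriptions, *PIF1* was 0.71 higher in H1299 DBP than in DBN, whereas in H1299shRAD9 DBP and DBN differed by 0.12 in *CCNF* and −0.004 in *PIF1*.

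Ordered by mean, *PIF1* was highest in H1299 CTL (4.95 ± 0.19), followed by H1299 BN (4.76 ± 0.56), H1299 BP (4.55 ± 0.35), H1299shRAD9 BN (4.42 ± 0.11), CTL (4.39 ± 0.31) and BP (4.37 ± 0.18). A step of 0.78 then led to H1299 DBP (3.59 ± 0.64), H1299shRAD9 DBN (3.05 ± 0.25), H1299shRAD9 DBP (3.04 ± 0.40) and H1299 DBN (2.89 ± 0.46; SD, n = 5 each). Every group overlapped its neighbor in this order, the step included, where the high DBP replicate 1 reached into H1299shRAD9 BP. *CCNF* had the same split: H1299 CTL (1.73 ± 0.33), H1299 BN (1.59 ± 0.38), H1299shRAD9 CTL (1.56 ± 0.09), BN (1.54 ± 0.17), BP (1.46 ± 0.24), H1299 BP (0.93 ± 1.63), H1299shRAD9 DBP (0.45 ± 0.20), H1299shRAD9 DBN (0.34 ± 0.49), H1299 DBN (−0.03 ± 1.42) and H1299 DBP (−0.24 ± 1.59), again with every neighbor overlapping. This order of *CCNF* depends on replicate 2: without it H1299 BP was second highest (1.65 ± 0.34) and the 4 direct groups lay close together, at 0.55 in H1299 DBN, 0.43 in H1299 DBP and 0.42 in both H1299shRAD9 groups (n = 4).

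Across arrays the 2 genes moved together through the groups but not within them. Over the 10 group means Pearson's r between *CCNF* and *PIF1* was 0.87. Over single arrays r was 0.87 (Spearman's coefficient 0.71) in the 25 H1299shRAD9 arrays and 0.28 (Spearman's 0.47) in the 25 H1299 arrays, which became 0.52 (Spearman's 0.63) over the 20 arrays without replicate 2. These points fall into direct and other arrays, and among the 15 H1299shRAD9 arrays that were not directly irradiated r was 0.05. After removal of the group means r over 50 arrays was −0.45, and −0.35 over 45 arrays without the H1299 replicate 2. All values share the scaling of each array and are descriptions.

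**Figure D3:**
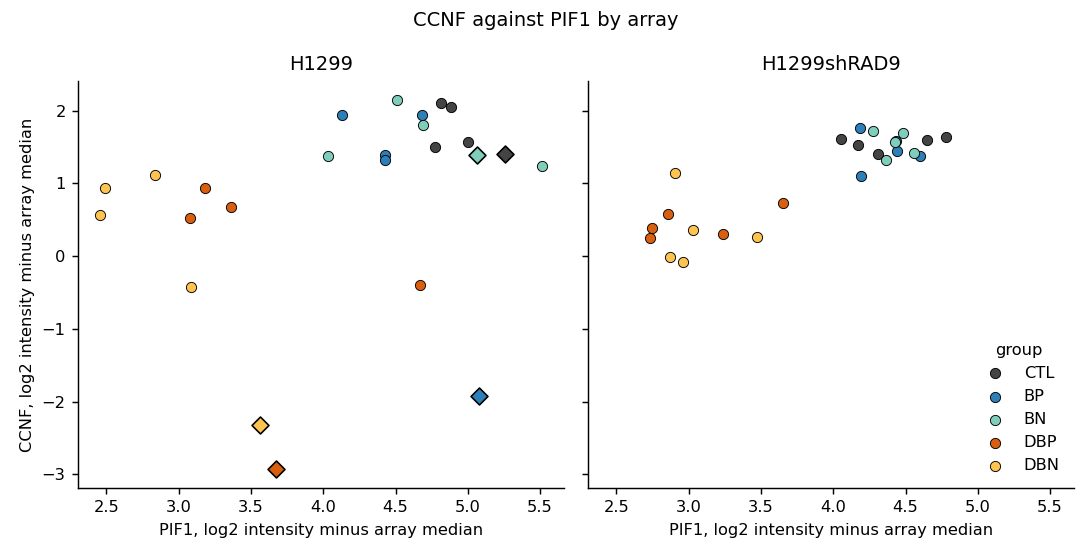
Level of *CCNF* (vertical axis) against *PIF1* (horizontal axis), both as log2 intensity minus the array median, in the 25 H1299 (left) and 25 H1299shRAD9 arrays (right); colors mark the groups and diamonds the H1299 replicate 2 arrays. In H1299shRAD9 the directly irradiated arrays form a cloud apart from the others, and in H1299 3 of the 5 diamonds lie at *CCNF* levels below −1.9.

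The genes most like *PIF1* over the 50 arrays, among 13788 genes, were *PSRC1* (r = 0.91) and *TROAP* (0.90), which encode spindle proteins, *CDCA2* (0.89), which directs protein phosphatase 1 to chromatin at mitotic exit, *STARD8* (0.89), and *BORA* (0.88), an activator of Aurora A. With the group means removed their r was 0.52, 0.67, 0.50, 0.64 and 0.42 in this order. The genes most like *CCNF* were *RAP2A*, *CDK2*, *HCFC1*, *ELK1* and *LINC00339* (r = 0.85 each). These 5 rest on the arrays that stood apart: on the replicate 2 arrays of H1299 DBP, DBN and BP, *CDK2* differed from its median by −2.85 to −2.38, and on the other 47 arrays by no less than −1.02. Without the 5 H1299 arrays of replicate 2, a choice made after seeing the data, the genes most like *CCNF* were *AURKA* (r = 0.90), *CENPA* (0.89), *HJURP* (0.88), *PLK1* (0.88) and *FAM83D* (0.88), all known for roles in mitosis or at the centromere, and *PIF1* rose from number 1465 to number 67 among the genes like *CCNF*. For *PIF1* the first 4 genes without these arrays were *TROAP* (0.95), *PSRC1* (0.92), *STARD8* (0.91) and *CDCA2* (0.90). Over the 10 group means, *CCNF* was most like *FAM72D* (0.98), *PILRA* (0.97), *MKI67* (0.97), *CCNA2* (0.97) and *G2E3* (0.97), and *PIF1* most like *CDCA2*, *CENPE*, *KIF2C*, *PSRC1* and *CKAP2* (0.98 each). With the group means removed, r was 0.49, 0.16, 0.53, 0.45 and 0.06 for *CCNF* in this order. For *PIF1* it was 0.50, 0.38, 0.55, 0.52 and 0.26. Correlations over arrays or group means include the split between direct and other arrays. The H1299shRAD9 DBP arrays, which chose the genes, are part of that split, so these values are descriptions.

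Genes with which the members share a phase, complex or enzyme class were counted next, with 1 feature per gene. The lists were chosen with earlier results of these data known. The study had also reported M phase genes as enriched in H1299shRAD9 DBP, so the counts are descriptions. Among G2/M phase genes, about as many were called lower after direct irradiation of H1299shRAD9 cells as were not. Of 41 such genes 24 passed the criteria, and 12 were called lower in H1299shRAD9 DBP (median difference of the 24 −0.49, against 0.02 for all features) and 13 in DBN (−0.49, against −0.02), where 1.77% and 4.78% of all features were called in either direction and 0.763% and 1.37% lower. The 12 were *BORA* (−1.003, adjusted p = 0.0284), *TROAP* (−1.10), *PSRC1* (−1.03), *FAM83D* (−0.99), *CENPA* (−0.87), *CDCA8* (−0.81), *AURKA* (−0.76), *CKAP2* (−0.66), *CENPE* (−0.62), *KIF20A* (−0.61), *PLK1* (−0.59) and *KIF23* (−0.51), and in DBN *CDC25C* (−0.46) was called as well. They encode kinases of mitotic entry (*AURKA*, *PLK1*), centromere and spindle proteins, and the phosphatase that activates CDK1 (*CDC25C*).

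In H1299 DBP the G2/M median was −0.76 (all features 0.01), 24 of 24 genes were below 0, and 6 were called lower: *BORA* (−1.20), *FAM83D* (−1.19), *AURKA* (−1.18), *PSRC1* (−1.13), *CENPA* (−1.04) and *KIF20A* (−1.03), each with a limma adjusted p of 0.0959. In H1299 DBN the median was −0.84 (all features −0.10) with 0 called by limma and 20 at an unadjusted p under 0.05. Of all features 0.0574% were called in H1299 DBP, 7 in number and all lower, and 0.0164% in H1299 DBN. In the bystander groups the G2/M medians were 0.02 (BP) and 0.04 (BN) in H1299shRAD9 and −0.17 (BP) and −0.11 (BN) in H1299. The medians of all features were 0.003, −0.006, −0.07 and −0.04 in this order. Below 0 were 9 (BP) and 7 (BN) of the 24 genes in H1299shRAD9, and 24 (BP) and 22 (BN) in H1299. In each bystander group, 0 of the genes were called and 1 was at an unadjusted p under 0.05, beside 0% to 2.33% of all features called. Against the bystander cells of the same replicate number, 5 were called lower in H1299shRAD9 DBP (median −0.55) and 8 in DBN (median −0.55). Of all features 0.0985% and 0.131% were called in these comparisons. In H1299 0 of the genes and 0% of all features were called (medians −0.58 and −0.72, 19 and 15 at an unadjusted p under 0.05). Between unirradiated lines *CENPF* (−0.54), *BORA* (−0.49) and *PSRC1* (−0.48) were called lower in H1299shRAD9, 3 of 24, where 7.65% of all features were, and the median was −0.25 against 0.10 for all features.

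No S phase gene was called against CTL in either line. Of 32 genes 16 were tested, and 0 were called by limma, with 0 to 2 at an unadjusted p under 0.05 in each of the 8 comparisons. Over all features 0% to 4.78% were called, so 0 of 16 does not set these genes apart. The medians after direct irradiation were 0.03 and 0.04 in H1299shRAD9 DBP and DBN and −0.02 and −0.24 in H1299.

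Among partners and substrates of cyclin F, 1 gene was called after irradiation. Of 18 genes 7 were tested, and the median was 0.04 in H1299shRAD9 DBP, 0.12 in DBN, 0.02 in H1299 DBP and −0.13 in DBN. *E2F7*, a repressor of the E2F family and a substrate, was called higher in H1299shRAD9 DBN (0.64, adjusted p = 0.0787) and lower in H1299shRAD9 CTL than in H1299 CTL (−0.82), 1 of 7 in each, beside 4.78% and 15.5% of all features called. The substrate *RRM2*, a ribonucleotide reductase subunit, had differences of −0.05 and −0.21 in H1299shRAD9 DBP and DBN, and of −1.16 and −0.73 in H1299 (adjusted p = 0.746 and 1.0), none of them called.

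Among the other cyclins, 18 of 23 were tested. *CCNG2*, a cyclin associated with cell cycle arrest, was the single one called after irradiation (−0.55, adjusted p = 0.0831). This was 1 of 18 in H1299shRAD9 DBP, where 1.77% of all features were called. The mitotic cyclins *CCNA2* and *CCNB1*, which are also in the G2/M list, had differences of −0.20 and −0.25 there and were not called. Between unirradiated lines *CCND2* (−2.44) and *CCNG2* (−0.97) were lower and *CCNJ* (0.55) was higher in H1299shRAD9, 3 of 18, beside 15.5% of all features called in either direction.

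No gene that shares a function with PIF1 was called lower against CTL. Of all features 0% to 4.78% were called in the comparisons with CTL, so lists this small without a call are not set apart. Of 18 other DNA helicase genes 8 were tested and 0 were called by limma in the 8 comparisons. At an unadjusted p under 0.05 there were 1 to 3 in those of H1299shRAD9 and 0 in those of H1299. Their medians were 0.02 and 0.00 in H1299shRAD9 DBP and DBN and 0.06 and −0.16 in H1299. *MCM9*, a helicase of homologous recombination, was higher in H1299shRAD9 CTL than in H1299 CTL (0.55), 1 of 8 beside 15.5% of all features called. Of 12 telomerase and shelterin genes 5 were tested. *POT1*, which binds the single-stranded telomere end, was called higher in H1299shRAD9 DBN (0.52, adjusted p = 0.0981). This was 1 of 5, beside 4.78% of all features called. *TERT*, the catalytic subunit of telomerase, had −0.02 in H1299shRAD9 DBP and −0.04 in DBN. Of 12 genes of break-induced replication 7 were tested and 0 were called by limma, with 0 to 1 at an unadjusted p under 0.05 in each comparison, and *POLD3*, the polymerase delta subunit needed for it, had differences of 0.06 and 0.01 in H1299shRAD9 and −0.11 and −0.41 in H1299 DBP and DBN.

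**Figure D4:**
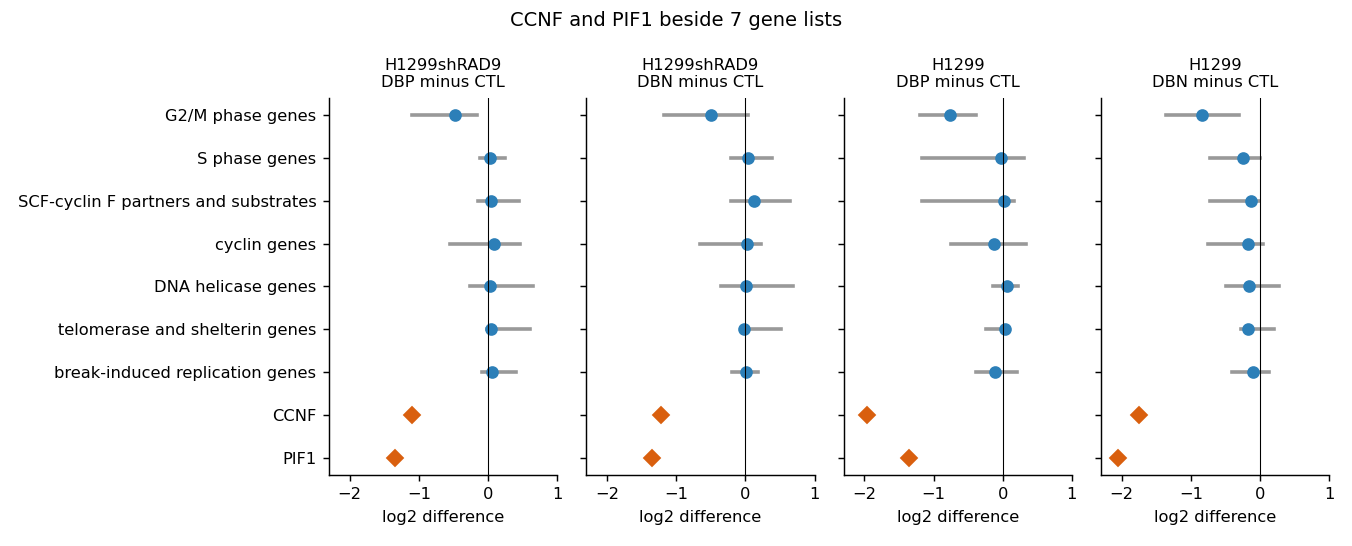
Log2 difference from CTL after direct irradiation for 7 gene lists and for *CCNF* and *PIF1*; for each list the blue point is the median and the gray line spans the lowest to the highest gene tested, and orange diamonds are the 2 genes. The G2/M list lies left of 0 in all 4 comparisons, with medians of −0.49, −0.49, −0.76 and −0.84, and the other medians lie between −0.24 and 0.12.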

How the data were processed

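Total RNA of 50 samples was hybridized by the authors to Agilent 1-color arrays, 1 sample per array, and scanned. The deposited scanner files hold intensity values per spot from Feature Extraction 11.5.1.1, already background-subtracted (the processed signal). A deposited table of log2 values, normalized and filtered by the authors, covers 9476 features that are not controls and served as an alternative; its columns have medians of 8.86 to 9.30 and correlate with their own arrays at 0.999 or more.

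Groups came from the sample labels. Here spots with outlier flags were left out, spots of a probe were averaged, and log2 processed intensity minus the median of each array was used. Of 34127 probes, 20078 were usable on over 75% of arrays, and 12185 of these also differed from their median by 1.3-fold on at least 20% of arrays. These were fitted with limma 3.58.1 in R 4.3.3, with the replicate number as a block within a line (called where p lay below 0.006 and the Benjamini-Hochberg adjusted p below 10%) and without it between lines and between dishes (p under 0.005 between lines). *RAD9A* was instead fitted among all 20078 usable probes, and its p-values were adjusted over these. Values are given with no test where the study or earlier results had used them to name a gene, except in CTL between the lines. That comparison was tested, although the study had also used it to list both genes as not significantly changed. With the block, p-values measure the spread of the differences between same-numbered samples, and without it the spread between samples. The labels number the samples as replicates, and the study calls them biological replicates. The number of arrays limits the precision.

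Same-numbered samples deviated together in every H1299shRAD9 comparison with CTL (lowest correlation of a pair 0.205 to 0.365). In H1299 the lowest was 0.263 for DBP and 0.151 for BN but −0.207 for BP and −0.087 for DBN. Between direct and bystander samples the lowest was 0.415 (DBP) and 0.328 (DBN) in H1299shRAD9, and 0.087 (DBP) and −0.101 (DBN) in H1299. H1299 DBP and DBN, fitted without a block, also deviated together (lowest 0.502). The block was kept as in the methods of the study.

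Tested on simulated data for H1299 DBP against CTL (12185 features), the fit called 47 of 100 features changed by 1 log2 unit, 97 of 100 changed by 2, and 14 of 11985 unchanged. The simulated noise was normal and independent between arrays, without effects of replicate, slide or outlying arrays. These rates therefore need not hold for the real arrays. Genes were named through accession (25771 probes), symbol (2207) or older symbol (499) in RefSeq, and 5650 kept the name in the file. The genes named are *CCNF*, *PIF1*, *RAD9A*, list members called or at the extremes, and the 5 genes most correlated with each member. Members and lists were chosen with earlier results of these data known. Figures used matplotlib 3.10.9. Some genes of the lists and of the identity check are not reported here.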

Additional observations from a re-analysis of the deposited data

Results flagged for a closer look

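*CCNF* in H1299 BP replicate 2 had a level of −1.93, far below the other 4 samples of its group (1.32 to 1.94), on an array where the probe was not well above background. *PIF1* in H1299shRAD9 DBN replicate 4 had a level of 3.47, above the other 4 samples (2.87 to 3.03), and still below all H1299shRAD9 CTL samples. Both were single samples whose gap to the nearest other sample took up more than 0.71 of the range of their group. Chance gives about 1 such group in 20, and 20 pairs of gene and group were examined.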

How the results depend on the processing

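Of 612 recomputed values over 42 results, 555 kept their direction and, where tested, their side of the threshold. Those of the 555 given without a test also moved by less than the spread between replicates. Another 9, of values given without a test, turned sign but moved by less than the spread between replicates: between lines *CCNF* was −0.11 (DBP) and −0.44 (DBN) with the authors' values and −0.015 and −0.12 without replicate 2, and H1299shRAD9 DBP against DBN was −0.0036 for *CCNF* without replicate 2 and 0.030 to 0.070 for *PIF1* in 4 settings. With normexp background correction *CCNF* in H1299 DBP against CTL was −1.43 and *PIF1* −1.57, both called (adjusted p = 0.0147 and 0.00925 in limma), *CCNF* in H1299shRAD9 DBP against CTL was −0.87, *PIF1* in H1299 DBN against BN was −0.99, and *PIF1* between CTL of the lines was −0.69 and called; the sign turned for *PIF1* in H1299shRAD9 BP (0.0073) and *CCNF* in BN (0.043) against CTL, for *CCNF* (0.28) and *PIF1* (0.39) between lines in BN, and for *PIF1* in H1299 BP against BN (0.41). With all groups in one fit, *CCNF* in H1299 DBP (−1.97) and DBN (−1.76) and *PIF1* in DBP (−1.36) against CTL, *PIF1* in H1299 DBP against BP (−0.96) and *CCNF* in DBN against BN (−1.62) were called. *CCNF* in H1299shRAD9 DBN against BN, at −1.21, lost its call there (adjusted p = 0.398), with no replicate block (0.112) and with the background criterion per group (0.12); the missing block changed no other call. *PIF1* between CTL of the lines was called with quantile normalization (−0.60), no variation criterion (−0.55) and the authors' values (−0.62). With the latter *CCNF* was −0.34 between lines in BP and 0.063 in H1299 BP against BN, both reversed. With slide as a random block *CCNF* in H1299 DBN against CTL was −1.55 and called, and in H1299 DBP against DBN 0.075. With slide in place of the replicate number *CCNF* was −1.65 in H1299shRAD9 DBN and 0.053 in BN against CTL, *PIF1* was −0.057 in BN against CTL and 0.12 in BP against BN, and *CCNF* was 0.63 in H1299 DBP against DBN. Leaving out 1 replicate number gave, in H1299shRAD9, −1.41 to −1.06 for *CCNF* in DBN against BN, −0.22 to 0.043 in BP against BN and −0.066 to 0.057 in BN against CTL, and for *PIF1* −0.039 to 0.13 in BN and −0.059 to 0.026 in BP against CTL. In H1299 it gave −1.61 to −1.27 for *PIF1* in DBP against CTL, −0.31 to 0.0047 for *PIF1* and −0.96 to 0.0036 for *CCNF* in BP against BN. Between lines it gave −0.67 to −0.39 for *PIF1* in CTL, −0.30 to 0.0017 in BP, and −0.27 to 0.78 (BP) and −0.18 to 0.12 (BN) for *CCNF*. Some of the tested values among the 555 still moved far. With normexp *PIF1* in H1299 BN against CTL was −1.01 and *CCNF* −0.48, against −0.19 and −0.14 in the main fit. The causes were not tested. The likeness, ranks and within-slide values without H1299 replicate 2 were chosen after seeing the data. So were the line differences of change, which left out replicate 2 of both lines.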
